A study of Mus musculus with 6 samples.

Results

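Among the differentially methylated regions listed between embryos that received sperm small RNAs of stress-induced depressed mice and embryos that received those of normal mice, 997 are CHH regions lying in long terminal repeat (LTR) retroviral repeats. CHH is a cytosine followed by 2 bases that are not G. Regions were taken from the deposited list when the context was CHH and at least 1 repeat entry had a name starting with IAP, RLTR, ERV, MMERV, ETn, MMETn, LTR, MLT, MT, ORR1, RMER or MER. Regions with an entry for RLTR31D_MM, IMPB_01 or a LINE-1 repeat, with an exon or UTR entry, or on chromosome X or Y were left out. The 997 regions were chosen from 9707 listed regions, of which 6943 are CHH regions, and the choice used no methylation value. Of these, 994 lie on chromosomes 1 to 19 and 3 on other sequences of the build.

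The depressed-RNA embryos (n = 3, replicates 1, 3 and 4) grew from fertilised eggs microinjected with sperm small RNAs of stress-induced depressed mice, and the normal-RNA embryos (n = 3, replicates 1, 2 and 4) from eggs given the sperm small RNAs of normal males. All embryos were of C57BL/6 background, received RNA at 2 ng/µl, were cultured and were collected at embryonic day 4.5, about 108 h after injection. Each embryo was sequenced alone by whole-genome bisulfite sequencing, in which unmethylated cytosines are read as thymine. An uninjected group is not analysed here, so all embryos share the injection. The list gives 1 mean methylation level per group and region, made by the authors, with 0 columns of values per embryo. The read depth behind each level is unknown, no level has a spread of its own, and no test against the variation among embryos was possible. The bisulfite conversion rate of either group is not analysed here. How much of a low level comes from unconverted cytosines is therefore not known. The regions were selected by the authors for a difference, so its size is a description, and intervals below are exact binomial 95% intervals over regions.

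LTR retrotransposons are relics of retroviruses that are copied through RNA, and their terminal repeats carry promoter and enhancer sequence. Most mammalian copies are kept silent by histone methylation and by methylation of CG sites, and methylation outside CG is scarce in most mammalian tissues but found in oocytes, neurons and pluripotent cells. In mouse, the families fall into class I (ERV1), class II (ERVK, which includes the active IAP and ETn elements) and class III (ERVL, with its non-autonomous MaLR relatives such as the MT and ORR1 repeats), and MT repeats serve as promoters in oocytes and early embryos.

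Nearly all the LTR regions were higher in depressed-RNA embryos, from a very low base in normal-RNA embryos. Of 997 regions, 918 were higher and 79 lower, so 92.1% were higher (90.2 to 93.7%). Over all 6617 CHH regions on chromosomes 1 to 19 the share was 78.9%, and over the 3580 of these with a repeat entry it was 89.4%. The rule leaves out exons, which matters here: among CHH regions with neither a repeat nor an exon the share was 89.7%, close to that of the LTR regions. CHH regions outside exons in LINE-1 repeats (92.2%), in SINE repeats (92.0%), in IMPB_01 (610 of 649 regions) and in RLTR31D_MM (96.9%) were also nearly all higher. No test of these shares was made, since regions are not replicates.

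The 918 higher regions had a median of 4.87% in depressed-RNA embryos (quartiles 3.50 and 7.66%) and 0.708% in normal-RNA embryos (quartiles 0.465 and 1.21%). In 830 of them the normal-RNA embryos were under 2%. The median difference was 3.99 percentage points, against 3.74 points for all higher CHH regions, and 96 regions differed by 10 points or more. The typical higher region covered 177 bp and 88 CHH cytosines (medians), or 51.6 cytosines per 100 bp. For all higher CHH regions on chromosomes 1 to 19 the median was 50.4 cytosines per 100 bp. Most higher LTR regions thus differed by a few points in their mean level. How the difference lies over the cytosines of a region, or over the embryos, is unknown.

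The 79 lower regions had another shape, with a median of 0.625% in depressed-RNA embryos against 13.7% in normal-RNA embryos. Their median difference was -10.8 points, against -21.1 points for all lower CHH regions, a set that includes exons. Among lower CHH regions with neither a repeat nor an exon it was -11.2 points, close to that of the LTR regions. The 79 regions fell into 2 sets with nothing between them. In 61 regions the depressed-RNA embryos were under 10%, and in 53 of these they were under 1%. In the remaining 18 regions both groups were at or above 30%, as they were in 9 of the higher regions. Cytosines were sparser in the lower regions, with a median of 37.5 CHH cytosines per 100 bp.

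**Figure D1:**
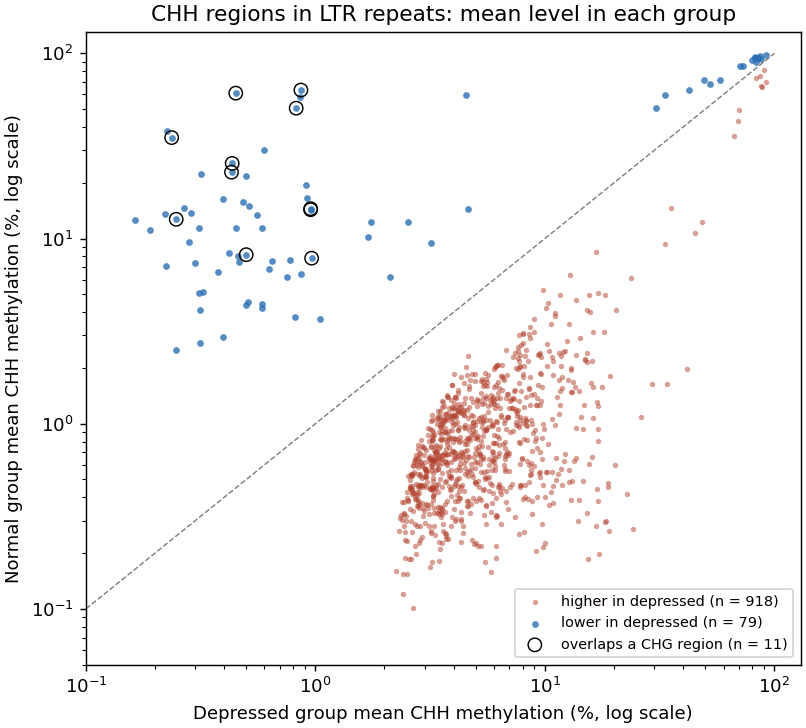
Each point is 1 CHH region in an LTR repeat, with the depressed-RNA embryos' mean level on the x axis and that of normal-RNA embryos on the y axis (both %, log scale), and the dashed line marks equal levels. Of the 918 higher regions, 909 form 1 cloud between about 0.1 and 14.5% in normal-RNA embryos, and 9 lie apart, high in both groups. The 79 lower regions also split, into those near 0 in depressed-RNA embryos and those high in both groups. Open circles mark the 11 regions that overlap a CHG region, all lower.

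By repeat class in the file, 555 regions had an ERVK entry, 250 an ERVL-MaLR entry, 87 an ERVL entry, 65 an entry marked ERVK with a question mark, and 16 an ERV1 entry. Regions can carry entries of several classes. Another 38 had an RMER1 entry that the file puts in the class Other, and 6 had a MER entry of the DNA transposon class hAT (MER5A, MER5B, MER20, MER45A or MER58B). The label of retroviral repeats therefore does not hold for all: 43 regions had no entry of an LTR class, and 38 of these were higher. The 1155 entries with such names carried 178 names, 92 of them on 1 region only. In 93 regions all these entries were named as internal sequence. The other 904 had at least 1 entry not named so, and they include copies without an LTR class.

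RMER repeats, rodent repeats mostly of the ERVK class in the file, made up more than any other name, with 520 regions, of which 487 were higher and 33 lower. Their higher regions had medians of 4.95% in depressed-RNA embryos against 0.736% in normal-RNA embryos. RLTR names followed with 186 regions (169 higher and 17 lower; higher regions at 5.52% in depressed-RNA embryos against 0.813% in normal-RNA embryos). ORR1 had 152 regions (138 higher and 14 lower; 4.38% in depressed-RNA embryos against 0.651% in normal-RNA embryos), and MTA to MTE had 78 (71 higher and 7 lower; 4.87% and 0.647%). MLT names had 39, MT2 names, which include the LTRs of the MERVL element, 16, and LTR names 9. Other MER names, which hold the DNA transposon entries, had 14 regions, of which 10 were higher (71.4%, 41.9 to 91.6%), against 93.7% for RMER. Among name groups, the medians of the higher regions in depressed-RNA embryos ran from 3.57% for ETn to 8.34% for LTR names and 9.36% for the 2 ERV regions. The plot by start of the repeat name gives all groups, and differences between names were not tested.

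**Figure D2:**
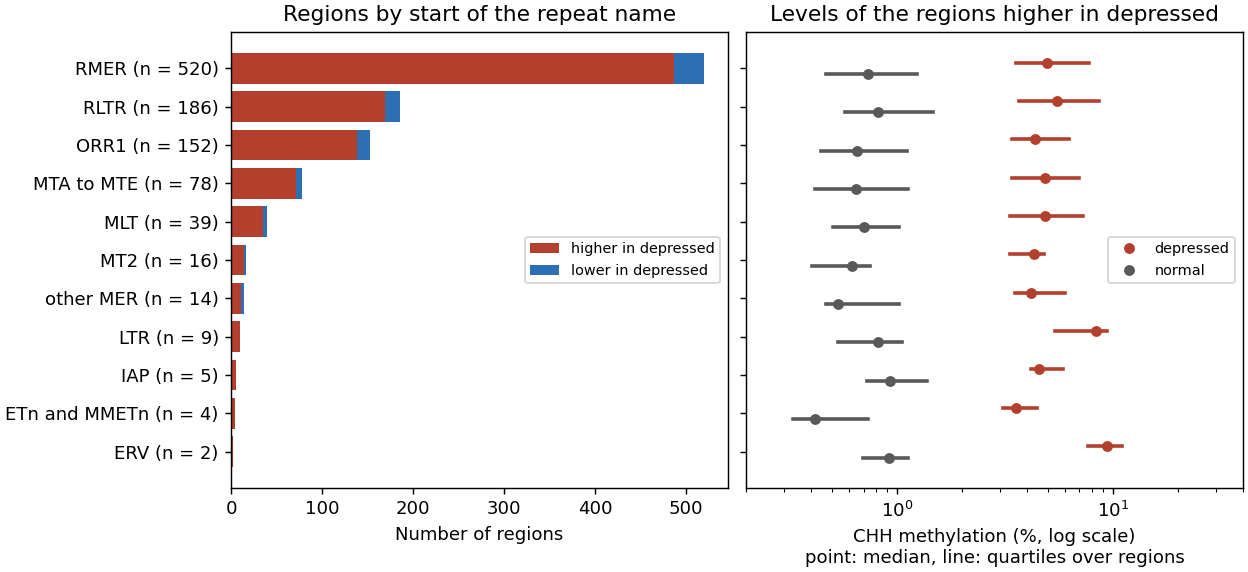
Left, the number of regions higher or lower in depressed-RNA embryos for each start of the repeat name. Right, the level of the higher regions (%, log scale) as median (point) and quartiles over regions (line) in depressed-RNA and normal-RNA embryos. RMER holds 520 of the 997 regions, and in every name group shown the median lies above 3.5% in depressed-RNA embryos against under 1% in normal-RNA embryos.

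Few of the 997 regions carried names of elements known as active and as the most strongly methylated in mouse. Counts of these elements in the genome, and of copies that reads covered, are not analysed here, so no depletion is shown. IAP names had 5 regions, all higher, with authors' means between 4.08 and 9.30% in depressed-RNA embryos against 0.713 and 1.62% in normal-RNA embryos. The strongest lay in IAPLTR2a2_Mm (mm10, chromosome 18, 8979342 to 8979828), at 4.57% in depressed-RNA embryos against 0.723% in normal-RNA embryos over 179 cytosines. ETn names had 4 regions, all of ETnERV2-int and all higher, with medians of 3.57% in depressed-RNA embryos against 0.418% in normal-RNA embryos. No region was named MMERV or MERVL. The share allowed by a count of 0 in 997 is up to 0.301% when set at 3 counts, and the exact binomial upper limit is 0.369%.

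A single group of related LTRs, RMER17, made up 333 of the 997 regions (33.4%, 30.5 to 36.4%). It was higher at 319 regions and lower at 14, with medians of 5.08% in depressed-RNA embryos against 0.774% in normal-RNA embryos for the higher ones. RMER17C2 had 115 regions (110 higher), RMER17C 55 (54 higher), RMER17D 55 (53 higher), RMER17D2 45 (43 higher) and RMER17A 42 (40 higher). RLTR51A_Mm followed with 65 regions, 63 of them higher, at 6.73% in depressed-RNA embryos against 0.698% in normal-RNA embryos, and RMER10B with 43 regions, 42 higher, at 4.26% in depressed-RNA embryos against 0.671% in normal-RNA embryos. All 25 regions of RMER1C (class Other in the file), all 22 of ORR1D1, all 17 of RMER4B and all 15 of ORR1C2 were higher. Their exact lower limits ran from 78.2% for ORR1C2 to 86.3% for RMER1C, all under the 92.1% of the 997 regions. RMER17 was 34.7% of the higher regions and 17.7% of the lower ones (14 of 79). How many copies of each family the genome holds is not analysed here, so these counts do not give a share of copies.

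Some family shares differed from those in the other contexts chosen in the same way. RMER17 was named in 2 of 43 CHG regions (4.65%, 0.568 to 15.8%) and in 5 of 117 CG regions (4.27%, 1.40 to 9.69%). MaLR repeats were named in 250 of the 997 CHH regions (25.1%, 22.4 to 27.9%), in 22 of the 43 CHG regions (51.2%, 35.5 to 66.7%) and in 39 of the 117 CG regions (33.3%, 24.9 to 42.6%). IAP was named in 5 CHH, 0 CHG and 13 CG regions, which is 0.502% of the CHH and 11.1% of the CG regions. Of the 43 CHG regions 3 were higher in depressed-RNA embryos (6.98%), and of the 117 CG regions 2 (1.71%). Both shares were near those of their whole contexts on chromosomes 1 to 19, which were 8.7% of all CHG regions (6.77% of those without an exon) and 1.04% of all CG regions (1.01% of those without an exon). The MaLR intervals of CHH and CG regions overlap, and no difference between contexts was tested. The intervals treat regions as independent, and a region longer than a repeat can name several.

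**Figure D3:**
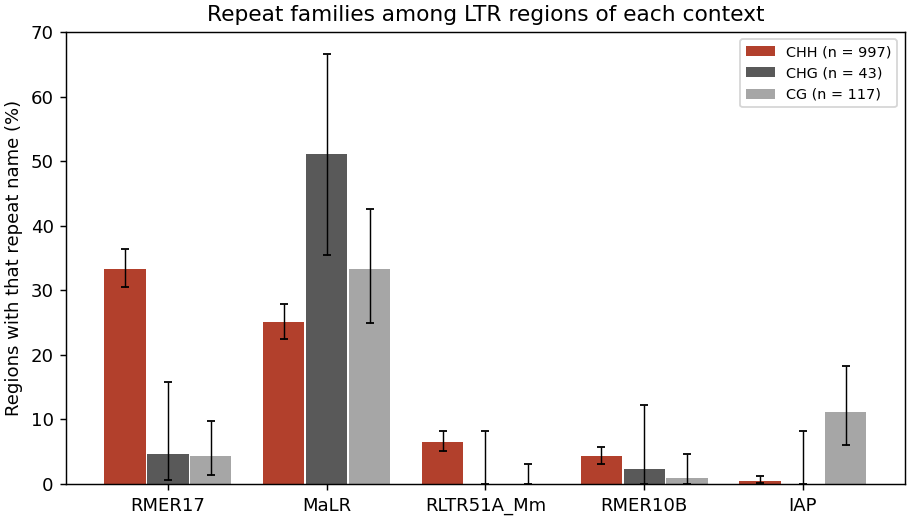
The bars give the share (%) of LTR regions naming each family for CHH (n = 997), CHG (n = 43) and CG (n = 117) regions chosen by the same rule, and the error bars are exact binomial 95% intervals over regions. RMER17 stands at 33.4% of CHH regions and under 5% in both other contexts, while IAP stands at 11.1% of CG regions and 0.502% of CHH regions.

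The repeat entries also give the stretch of the family's consensus that each annotated copy covers, a measure the rule did not use. For RMER17C2, whose consensus reaches base 545 in the list, 54 of 119 copies ran over the full length within 10 bases at either end. Other families appeared as short recurring stretches. RLTR51A_Mm copies had a median start at base 155 and a median end at base 285 of 351, and 3 of 67 were full length. ORR1B1-int copies lay between bases 604 and 895, with a median start at 648 and a median end at 791. RMER1C copies had a median start at 1198 and a median end at 1325 of 1342. All 4 RMER6-int regions covered consensus bases from 2518 to between 2578 and 2582, and all 4 were lower (2 of them overlap a CHG region), between 0.498 and 0.963% in depressed-RNA embryos against 6.22 and 21.8% in normal-RNA embryos. Extents of copies outside the list are not analysed here, so it is not known whether these stretches are also the common ones in the genome.

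Where the annotated copy was short, much of the region lay outside it. The longest LTR copy spanned less than the region's length on its consensus in 337 regions, and less than 50% of it in 126 regions. Of these 126 regions 106 were higher (84.1%), against 812 of the other 871 (93.2%). A SINE entry was present in 92 regions, 84 of them higher (91.3%).

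Levels at or above 30% in both groups, unusual for CHH, were listed in 27 regions (2.71%, 1.79 to 3.92%), against 150 of the 6617 CHH regions on chromosomes 1 to 19 (2.27%). Of the 27, 9 were higher, with medians of 86.4% in depressed-RNA embryos against 66.8% in normal-RNA embryos, and 18 were lower, with medians of 80.8% in depressed-RNA embryos against 91.2% in normal-RNA embryos. The share lower was 66.7% here and 68.7% among the 150 CHH regions at such levels (103 of 150). No more than 3 families accounted for 20 of the 27: RMER12C and RLTR20A4 with 9 regions each and RLTR20C1_MM with 2. In 16 of the 27 the annotated copy spanned less than 50% of the region.

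Among families with 15 regions or more, RMER12C had the most even split, with 11 higher and 9 lower regions. All its copies began between consensus bases 733 and 800. Its strongest lower region, in Tmco4 (chromosome 4, 139042336 to 139042546, intron), was at 4.53% in depressed-RNA embryos against 59.5% in normal-RNA embryos, and its statistic was the strongest among the lower regions. An intronic RMER12C region in Cacna1c, which encodes an L-type calcium channel pore (chromosome 6, 119120585 to 119121019), was at 52.5% in depressed-RNA embryos against 68.5% in normal-RNA embryos. At Wdr95 (chromosome 5, 149541328 to 149541720) the level was 71.0% in depressed-RNA embryos against 85.3% in normal-RNA embryos. A higher one, at the promoter of Alox5ap, a gene of leukotriene synthesis (chromosome 5, 149264060 to 149264191; chosen after its values were seen), was at 69.3% in depressed-RNA embryos against 42.9% in normal-RNA embryos. The RMER12C regions outside the high set lay over much the same stretch, with a median start at base 761 against 769, so copies at both levels covered similar stretches.

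RLTR20A4 had 18 higher and 6 lower regions. The 9 with high levels ranged from 79.6 to 92.3% in depressed-RNA embryos against 66.8 to 97.6% in normal-RNA embryos, and the other 15 from 0.499 to 16.2% in depressed-RNA embryos against 0.642 to 8.18% in normal-RNA embryos. No RLTR20A4 region lay between these ranges. The high copies had a median start at consensus base 434 and a median end at 493, and the other copies a median start at 428.5 and a median end at 493. The strongest, in an intron of the lactoperoxidase gene Lpo (chromosome 11, 87813246 to 87813603), was at 91.6% in depressed-RNA embryos against 97.6% in normal-RNA embryos. RLTR20C1_MM had 2 high regions, in Matn2 and St8sia1, at 81.9 and 85.0% in depressed-RNA embryos against 95.0 and 94.3% in normal-RNA embryos. Its other 14 regions were all higher, at 2.65 to 18.1% in depressed-RNA embryos against 0.260 to 3.14% in normal-RNA embryos.

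**Figure D4:**
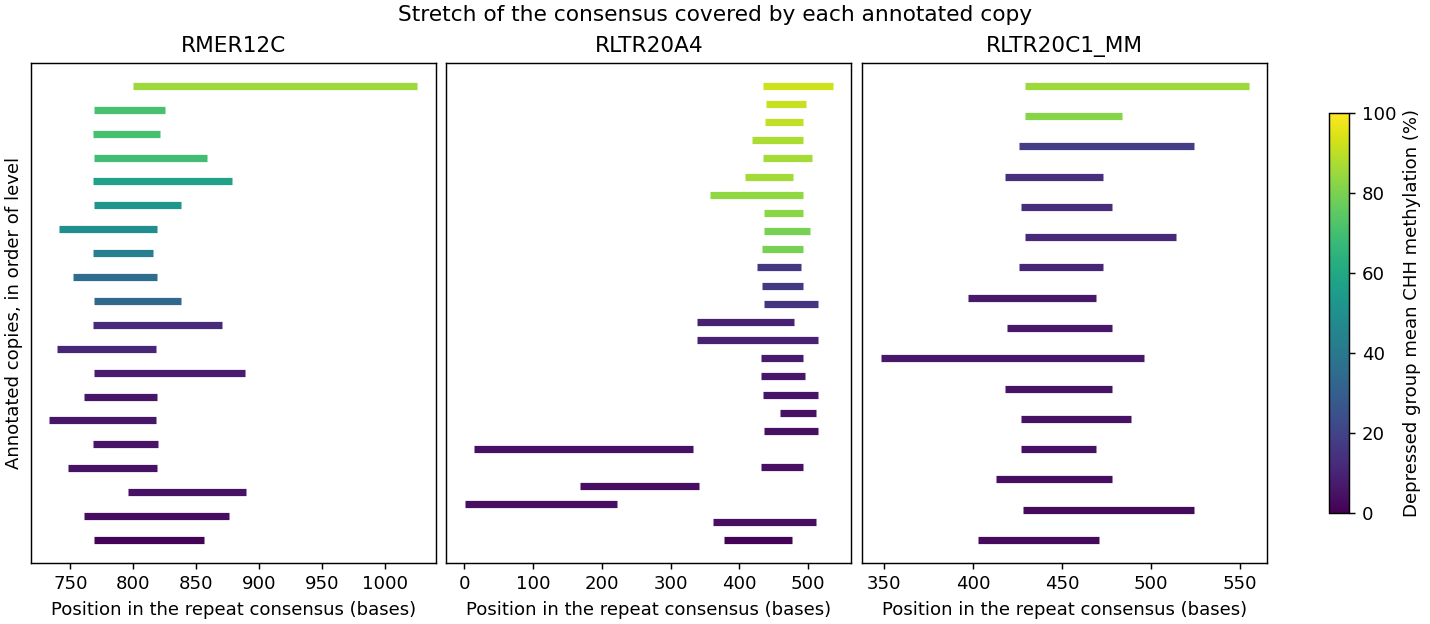
Each line is 1 annotated copy of RMER12C, RLTR20A4 or RLTR20C1_MM, drawn over the stretch of the family's consensus (bases) that it covers, ordered and coloured by the depressed-RNA embryos' mean CHH level (%). Copies at high and at low levels cover much the same stretch, apart from a few RLTR20A4 copies nearer the start of the consensus at low levels, as with the median starts at base 434 and 428.5 in RLTR20A4.

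Of the 5 widest differences downward, 3 lay where a CHG region was listed too. The RLTR13D3A copy on chromosome 3 (56724448 to 56724714) was at 0.865% in depressed-RNA embryos against 63.4% in normal-RNA embryos over 33 CHH cytosines. A CHG region over the same place was at 0.593% in depressed-RNA embryos against 70.1% in normal-RNA embryos. In Scaf11, a splicing factor gene (chromosome 15, 96458388 to 96458526), the CHH level was 0.450% in depressed-RNA embryos against 61.0% in normal-RNA embryos, and the CHG level 1.70% and 61.6%. That region touches 2 bases of an MT2B consensus (156 to 157) and is otherwise listed under SINE repeats. An ORR1A3 copy on chromosome 12 (25504685 to 25504881) stood at 0.825% in depressed-RNA embryos against 50.6% in normal-RNA embryos, with CHG at 0.0997% and 51.3%. The ORR1B1-int region on chromosome 17 (7531208 to 7531431), at 0.859% in depressed-RNA embryos against 58.1% in normal-RNA embryos, overlapped no listed CHG region, nor did the RMER12C region in Tmco4.

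In all, 11 of the 79 lower regions (13.9%, 7.16 to 23.5%) overlapped a CHG region, and each of these CHG regions was lower too. Among all lower CHH regions on chromosomes 1 to 19 the share was 54.4%, but among those without an exon entry it was 14.8%, close to that of the LTR regions. The others in genes lay in Jarid2, a partner of the Polycomb repressive complex 2 (0.963% in depressed-RNA embryos against 7.83% in normal-RNA embryos for CHH), in Mdm4, a p53 inhibitor (0.499% and 8.18%), in Prex1, a Rac exchange factor (0.954% and 14.5%), in Camk2a, a calmodulin-dependent kinase of neurons (0.434% and 25.4%), and in introns listed for Fam134b (0.236% and 35.1%), 3110035E14Rik (0.431% and 22.8%) and D430041D05Rik (0.247% and 12.7%). None of the 918 higher regions overlapped a CHG region. This allows a share of up to 0.327% at 3 counts (exact binomial upper limit 0.401%). Among all higher CHH regions on chromosomes 1 to 19 it was 6 of 5223 (0.115%), so such overlap was rare there too. None of the 997 overlapped a CG region, and that share over all CHH regions was not computed.

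Among higher regions, the strongest statistic lay in an intron of Foxp2, a forkhead transcription factor gene (chromosome 6, 15174566 to 15175310; RLTR11A2 and RLTR11C_MM), at 6.47% in depressed-RNA embryos against 1.81% in normal-RNA embryos over 379 cytosines. An RMER3D-int region on chromosome 7 (84845954 to 84846767) had 5.48% in depressed-RNA embryos against 1.88% in normal-RNA embryos over 402 cytosines. RMER1C on chromosome 8 (50207520 to 50208025) was at 9.56% in depressed-RNA embryos against 1.27% in normal-RNA embryos. These 3 regions held many cytosines, and their differences in the authors' deposited table were 4.66, 3.60 and 8.29 points. In Cacng5, a gene of the calcium channel gamma family, an MTEb region was at 15.2% in depressed-RNA embryos against 4.11% in normal-RNA embryos. An MTE-int region on chromosome 16 (79572899 to 79573306) had 5.61% in depressed-RNA embryos against 1.67% in normal-RNA embryos.

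The widest differences upward came from short regions. In Eepd1 an RLTR51A_Mm region of 79 bp (chromosome 9, 25580556 to 25580634) was at 41.7% in depressed-RNA embryos against 1.98% in normal-RNA embryos over 43 cytosines. Next came the RMER17C2 region in Plppr1 (chromosome 4, 49315577 to 49315672), at 48.2% in depressed-RNA embryos against 12.3% in normal-RNA embryos, and one on chromosome 4 (124535100 to 124535213), at 44.9% and 10.7%. An RMER17A copy on chromosome 10 (129202677 to 129202825) was at 34.0% in depressed-RNA embryos against 1.65% in normal-RNA embryos. At the promoter listed for Zfp568, a KRAB zinc finger gene (chromosome 7, 29981891 to 29981989; RLTR53B_Mm), the level was 66.8% in depressed-RNA embryos against 35.6% in normal-RNA embryos. That region lies outside the RefSeq span of Zfp568. In both directions 16 regions differed by 20 points or more, although higher regions outnumbered lower ones.

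Introns were listed for 350 regions (35.1%, 32.1 to 38.2%), against 1319 of 3413 CHH repeat regions without an exon (38.6%). Of the 350 intronic regions 307 were higher (87.7%), and of the 647 others 611 (94.4%), so 43 of the 79 lower regions were intronic. The same split was not computed for all CHH repeat regions, so whether it is particular to LTR regions is not known. Genes were named for 310 regions, 297 genes in all, and 16 genes had 2 regions or more. Of these, 3 had 3 regions, among them Cntnap2, which encodes an axonal membrane protein. In Cntnap2 the means were 8.01, 4.63 and 6.90% in depressed-RNA embryos against 0.393, 2.31 and 1.08% in normal-RNA embryos.

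Ctnna2, which encodes a neuronal catenin, had 3.23 and 4.31% in depressed-RNA embryos against 0.179 and 0.334% in normal-RNA embryos. Nrg1, an ErbB receptor ligand gene, had 4.71 and 5.97% in depressed-RNA embryos against 0.329 and 0.681% in normal-RNA embryos. The cyclic nucleotide phosphodiesterase gene Pde3a had 12.8 and 13.6% in depressed-RNA embryos against 6.39 and 4.65% in normal-RNA embryos. Phactr3, a phosphatase and actin regulator gene, went the other way at both its regions, with 0.583 and 0.482% in depressed-RNA embryos against 11.3 and 15.8% in normal-RNA embryos. Astn2, an astrotactin gene of neuronal migration, was split, with 3.42 and 30.4% in depressed-RNA embryos against 1.11 and 51.0% in normal-RNA embryos. The regions listed for Slc7a11 lie outside its RefSeq span and are not described, nor are those of the predicted gene Gm20388. The RefSeq spans of Ctnna2, Nrg1, Astn2 and Cntnap2 are long, from 1023735 bp for Astn2 to 2241333 bp for Cntnap2, and the counts were not adjusted for length.

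Promoters were listed for 42 regions (4.21%, 3.05 to 5.65%), of which 41 were higher, and for 155 of 3413 CHH repeat regions without an exon (4.54%). At the promoter of Myom2, a gene of the muscle sarcomere, an ORR1C2 region (chromosome 8, 15117038 to 15117386) was at 6.16% in depressed-RNA embryos against 1.38% in normal-RNA embryos. Stx3, a syntaxin gene of membrane fusion (chromosome 19, 11791204 to 11791617; RMER17C2), had 7.76% in depressed-RNA embryos against 2.05% in normal-RNA embryos. Oas3, an antiviral oligoadenylate synthetase gene (ORR1D1), had 4.79% and 0.607%, Immt, a gene of mitochondrial crista structure (MTD), 7.62% and 0.983%, and Pmp2, a myelin lipid-binding protein gene whose RefSeq span the region does not touch (RMER1C), 6.76% and 0.379%. Daglb, a diacylglycerol lipase gene (RLTR21), was at 88.3% in depressed-RNA embryos against 65.5% in normal-RNA embryos. The 1 lower promoter region, in an RLTR20A4 repeat of the ephrin receptor gene Ephb2 (chromosome 4, 136695246 to 136695574), was at 79.6% in depressed-RNA embryos against 92.3% in normal-RNA embryos.

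Higher regions were the majority on all 19 chromosomes, and evenness between chromosomes was not tested. The share of higher regions per chromosome ran from 83.0% on chromosome 15 through a median of 93.1% to 100% on chromosome 16, and on 19 of 19 chromosomes it was above that of all CHH regions, a comparison that includes the exons left out here. LTR regions were 10.3% of the CHH regions on chromosome 11 and 19.8% on chromosome 12, with a median of 15.6%. Chromosomes 9 and 10 held 93 of the 997. Neighbouring regions were far apart, with a median gap of 1.71 Mb, and only 10 pairs were under 10 kb apart, of which 8 had the same direction.

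Of 30 genes that act in the silencing or methylation of retroelements, 6 had any listed region (20%) and 1 had an LTR region (3.33%). Among all 21896 protein-coding RefSeq genes matched by symbol or synonym, 4010 had a listed region (18.3%) and 292 an LTR region (1.33%), and no test of the list was made. The gene with an LTR region was Morc3, a chromatin ATPase gene, where an ORR1D1-int region (chromosome 16, 93859638 to 93859807) was at 10.9% in depressed-RNA embryos against 0.374% in normal-RNA embryos. Hells, which encodes a chromatin remodeller needed for repeat methylation, had a CHH region at 6.07% in depressed-RNA embryos against 0.832% in normal-RNA embryos, and Tet2, a methylcytosine dioxygenase gene, one at 4.88% and 0.739%. Tet3 had a CHH region at 1.34% in depressed-RNA embryos against 22.1% in normal-RNA embryos. CHG regions lay in the methyltransferase gene Dnmt3a, at 0.0921% in depressed-RNA embryos against 9.10% in normal-RNA embryos, and in its cofactor gene Dnmt3l, at 8.51% and 0.119%.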

How the data were processed

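The submitters' processing notes name Trim Galore (0.3.3), Bismark, SAMtools and the mouse build mm10, in no stated order. Not given in the sources used here: which caller made the regions, with which thresholds and coverage filter, and by what rule the 3 embryos of a group were averaged. The deposited table gives each group's mean methylation as a fraction, their difference (depressed minus normal), the number of cytosines and a region statistic, a score made by the authors, per the file headers. Fractions were multiplied to percent. Its 18732 annotation entries were collapsed to 9707 regions. All 997 members had a statistic of the same sign as the difference. Repeat name, class and consensus stretch were read from the repeat entries, which give no genome position of the repeat. Gene spans came from RefSeq (GRCm38.p6). Overlap meant at least 1 bp.

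Named regions were, per direction, the 10 with the strongest statistic, the 5 with the widest difference, the strongest of each name group, the longest, and up to 10 at promoters, plus up to 10 overlapping CHG or CG regions and up to 10 genes with several regions. Some of these are given only in counts, and Alox5ap, Matn2, St8sia1 and Camk2a were named after their values were seen. Some regions that the rule names are not reported here. The members and lists were chosen with earlier results of these data known. The member rule, overlap and median intervals were tested on simulated data. Python 3.11.15, pandas 2.3.3 and SciPy 1.17.1 were used.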

Additional observations from a re-analysis of the deposited data

How the results depend on the processing

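No paired analysis was possible because the list holds no value per embryo, and for the same reason leaving out an embryo was not run. For 7 results under 8 other settings and 3 added after seeing the data, 59 of 71 values stayed within the main value's 95% interval over regions (counts within 1.5 times), and 0 changed sign. Apart from the settings that left 138 and 500 regions, each set held 871 to 1032 regions, mostly the same ones. Staying within the interval was thus likely beforehand for those sets. With differences of at least 10 points only, 138 regions were left, 69.6% higher, with median differences of 13.6 points (higher) and -14.9 points (lower), 40.6% in introns and 6.52% overlapping a CHG region. With a statistic at or above the CHH median, 500 regions were left, 94.8% higher, 0.400% overlapping a CHG region and 28.0% with a MaLR name. With LTR repeat entries only, 21.4% had a MaLR name. Without regions at or above 30% in both groups, an alternative added after seeing the data, 93.7% were higher. Without values per embryo and without depth, no level here has an error of its own.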
